A study of Mus musculus with 4 samples.

Results

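Alveolar type 1 genes were followed by RNA-Seq in the lungs of mice given amiodarone, dabigatran, their combination or vehicle. They are the 10 rows of the expression table whose symbol is Ager, Hopx, Aqp5, Pdpn, Rtkn2, Akap5, Clic5, Emp2, Vegfa or Cldn18, out of 17780 genes, and were listed by name as genes known for this cell type. All mice were C57BL/6 by the labels and, in the study's methods, C57BL/6J males bought at 6 to 7 weeks of age, and the labels name no engineered allele. Amiodarone, an antiarrhythmic drug, was given by mouth at 300 mg per kg and dabigatran, an oral thrombin inhibitor given as its etexilate, at 60 mg per kg, alone or together, 5 times per week for 4 weeks. The vehicle, carboxymethylcellulose, was also the suspension in which the drugs were given. The labels give 28 days of treatment and the methods give day 26 for the collection of the left lung. Each group is represented by 1 library, so no value below has a replicate of its own group, and no test across animals was run. Whether a library came from a single mouse or from a pool is not given in the sources used here.

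Alveolar type 1 cells are the flat, very thin epithelial cells that cover most of the gas-exchange surface. They lie against the capillary endothelium with a fused basement membrane and transport water and ions. They can arise from alveolar type 2 cells, the cuboidal producers of surfactant, which serve as their progenitors after injury. The transcription factor NKX2-1 and the YAP/TAZ coactivators with their TEAD partners are known to sustain the type 1 programme.

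The estimated reads on genes summed to between 17498486 and 18903401 per library. The 10 genes together took 0.927% of the reads with vehicle (exact 95% interval 0.922 to 0.931), 0.884% with amiodarone (0.880 to 0.888), 0.972% with dabigatran (0.968 to 0.977) and 0.940% with amiodarone + dabigatran (0.936 to 0.945). These intervals, and those of all ratios below, come from read numbers and cover counting error only, so they describe the libraries and not the spread between mice. In whole lung, fewer cells of a type and less RNA per cell cannot be told apart.

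Every member was well expressed in each library, the lowest value being 42.6 FPKM for Akap5 with amiodarone. FPKM scales read fragments to the length of the transcript and the size of the library, so that levels of different genes can be set side by side. Ager, which encodes the receptor RAGE of the basolateral membrane of type 1 cells, had the highest level of the list in all 4 libraries and stood at rank 12 of all genes with vehicle. With vehicle it was followed by Hopx, Emp2, Cldn18, Vegfa, Aqp5, Clic5, Pdpn, Rtkn2 and Akap5. Over the 4 libraries the ranges of Cldn18 and Vegfa overlapped, as did those of Vegfa and Aqp5 and those of Rtkn2 and Akap5. The ranges of the other neighbours did not overlap. Each range runs over differently treated libraries and is not a spread between replicates. Within each library Cldn18 was above Vegfa and Rtkn2 above Akap5, while Aqp5 was below Vegfa without amiodarone and above it with amiodarone. Hopx was the steadiest member, with its highest value 1.04 times its lowest, and Akap5 the most variable, at 1.61 times.

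**Figure D1:**
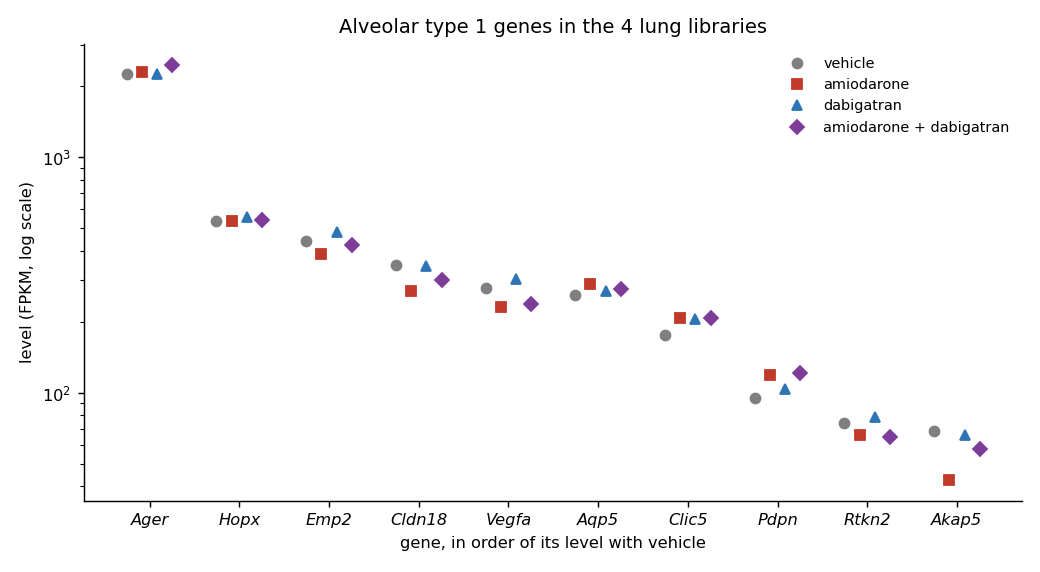
Level of each of the 10 alveolar type 1 genes (FPKM, log axis) in the vehicle, amiodarone, dabigatran and amiodarone + dabigatran libraries, 1 symbol per library and no error bars because each group has 1 library. The symbols of a gene lie close together apart from those of Akap5, which run from 42.6 to 68.7 FPKM.

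The first comparison asks what amiodarone did to the lung, by setting the amiodarone library against vehicle. The type 1 genes did not move as a block. Their median difference in log2(FPKM + 1) was -0.08, with 4 genes above 0 and 6 below, against a median of -0.05 over the 13402 genes tested, those that reached 1 FPKM in one or the other library. Of these 13402 genes, 58.6% were below 0. A gene was called when it differed at least 1.5-fold on that scale. None of the 10 was called higher, against 4.34% of all genes, and 1 was called lower, against 3.93% of all genes. Among the 2172 genes that reached 40 FPKM, a comparison chosen after seeing the data, 6.77% were called higher and 3.36% lower.

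The member called lower was Akap5, which encodes an anchoring protein that holds protein kinase A and other signalling enzymes at the membrane. Akap5 had 68.7 FPKM with vehicle, 42.6 FPKM with amiodarone, 66.2 FPKM with dabigatran and 57.8 FPKM with amiodarone + dabigatran. Both libraries that received amiodarone lay below both that did not. The ratio of amiodarone to vehicle was 0.620 (95% interval 0.599 to 0.642), and that of the combination to dabigatran was 0.872 (0.845 to 0.900).

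Cldn18 encodes claudin 18, the tight junction claudin of alveolar epithelium, made by type 1 and type 2 cells. Its level was 347 FPKM with vehicle, 270 FPKM with amiodarone, 345 FPKM with dabigatran and 302 FPKM with the combination. As for Akap5, the amiodarone-treated libraries were both lower than the others. The ratio of amiodarone to vehicle was 0.777 (0.760 to 0.795), which did not reach 1.5-fold.

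Vegfa, the vascular growth factor that type 1 cells supply to the neighbouring capillaries and that many other cells make too, had 277, 231, 304 and 237 FPKM with vehicle, amiodarone, dabigatran and the combination. Here as well both libraries with amiodarone were the lower ones. The ratio was 0.836 (0.817 to 0.855) for amiodarone to vehicle and 0.778 (0.761 to 0.795) for the combination to dabigatran. Emp2, a membrane protein with 4 spans that is abundant in type 1 cells, had 438, 389, 482 and 423 FPKM in the same order. Its amiodarone-treated libraries were again below the others, with ratios of 0.887 (0.871 to 0.902) and 0.878 (0.863 to 0.892). Rtkn2, an effector of small GTPases, had 74.0, 65.8, 78.9 and 65.1 FPKM, and its pattern was of the same kind with ratios of 0.889 (0.850 to 0.929) and 0.825 (0.791 to 0.861).

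Pdpn, podoplanin or T1-alpha, the mucin-like glycoprotein of the apical membrane, moved the other way. It had 94.7 FPKM with vehicle, 119 FPKM with amiodarone, 104 FPKM with dabigatran and 121 FPKM with the combination. Both libraries with amiodarone were above both without it, by ratios of 1.26 (1.20 to 1.32) and 1.17 (1.11 to 1.22). Podoplanin is also made by lymphatic endothelium, fibroblasts and mesothelium, so its level in whole lung is not that of type 1 cells alone. Aqp5, the water channel of the apical membrane, had 260, 289, 270 and 275 FPKM, with the highest value in the amiodarone library and ratios of 1.11 (1.07 to 1.15) and 1.02 (0.988 to 1.05).

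Ager and Hopx, the most abundant members, had nearly the same level with amiodarone as with vehicle. Ager had 2250 FPKM with vehicle, 2287 FPKM with amiodarone, 2248 FPKM with dabigatran and 2462 FPKM with the combination. Only the combination stood apart, at 1.10 times dabigatran (1.08 to 1.11). Hopx, a small homeodomain protein that does not bind DNA and marks type 1 cells, had 534, 534, 556 and 540 FPKM. Its ratio of amiodarone to vehicle was 0.999 (0.973 to 1.03). Clic5, a member of the chloride intracellular channel family that is tied to the cortical cytoskeleton, had 176 FPKM with vehicle and 207, 205 and 207 FPKM in the 3 treated libraries, so its lone low value was that of vehicle. Its ratio was 1.18 (1.15 to 1.20) for amiodarone to vehicle and 1.01 (0.991 to 1.03) for the combination to dabigatran.

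**Figure D2:**
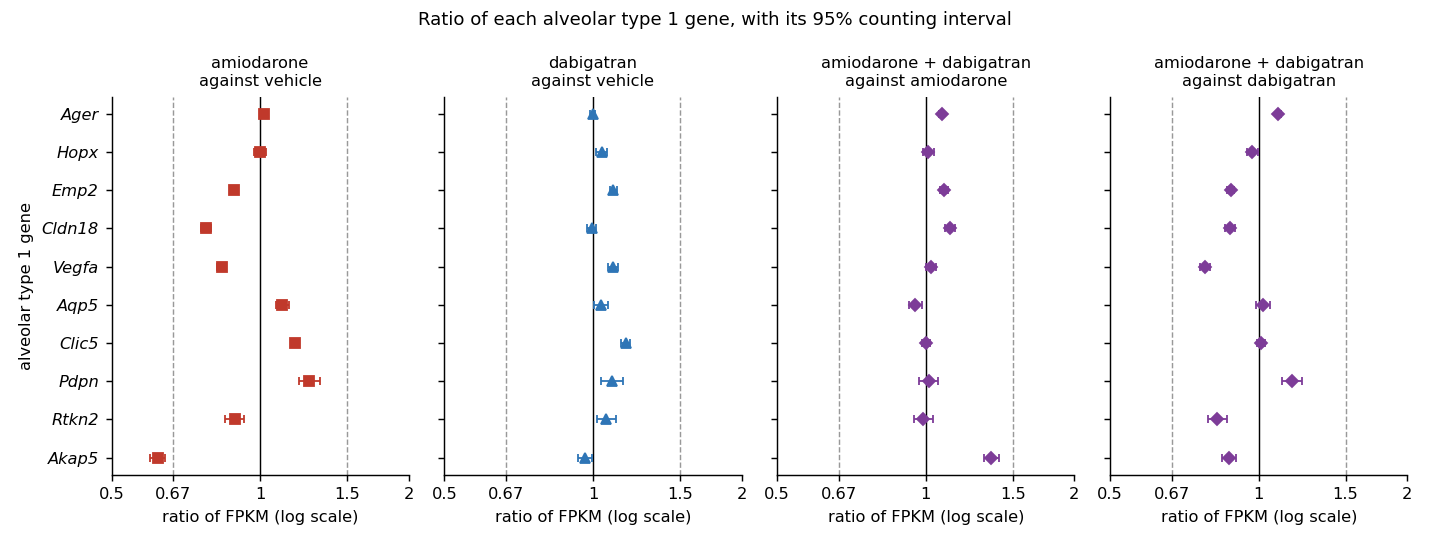
Ratio of FPKM (log axis) of each of the 10 genes in the 4 comparisons, with the 95% interval from the reads as bars, the solid line at 1 and dashed lines at 1.5-fold either way. Akap5 with amiodarone against vehicle, at 0.620, is the single point beyond a dashed line.

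The pair formed by amiodarone + dabigatran and dabigatran alone shows the difference with amiodarone in libraries that the pair of amiodarone and vehicle does not use. In it the median of the 10 genes was -0.11, against -0.01 over 13379 genes. No member was called higher, against 3.25% of all genes, and none lower, against 2.04%. The 10 genes had the same direction in both pairs, 6 lower and 4 higher, while 34.9% of the 13245 genes compared in both pairs had opposite directions. For Hopx in the first pair, and for Aqp5 and Clic5 in the second, the interval includes 1, so the direction is not beyond counting error. For Hopx the differences were so small that rescaling the libraries by the median ratio over genes turned the first of them (ratio 1.03). Each amiodarone pair rests on 2 libraries, and the size of a difference between untreated mice is unknown.

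The comparison of dabigatran with vehicle addresses the drug on its own. The median of the 10 genes was 0.07, against 0.00 over 13373 genes, of which 49.5% were below 0. Of the 10, 7 were above 0 and 3 below. None was called higher, against 0.449% of all genes, and none lower, against 0.508%. The largest ratio was that of Clic5 at 1.17 (1.14 to 1.19), and then those of Vegfa and Emp2 at 1.10 each (1.08 to 1.12 for both).

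The comparison of the combination with amiodarone alone asks whether dabigatran altered the response. The median was 0.03, the same as over 13261 genes, of which 42.0% were below 0. Of the 10 members, 7 were above 0. None was called higher, against 1.06% of all genes, and none lower, against 1.22%. Akap5 had the largest ratio, 1.36 (1.31 to 1.40), which left it at 57.8 FPKM, below the 68.7 FPKM of vehicle. Cldn18 followed at 1.12 (1.09 to 1.14) and Emp2 at 1.09 (1.07 to 1.11), and both also remained below vehicle. Vegfa, Rtkn2, Pdpn, Hopx and Clic5 had ratios between 0.989 and 1.02, with intervals that include 1. This comparison and that of amiodarone with vehicle share the amiodarone library, so a low or high value in it enters both.

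A list of 16 further type 1 genes, which holds none of the members, showed larger differences. Like the lists below, it was chosen with earlier results of these data known, so its counts are a description and not independent support. In the amiodarone library 11 of the 16 genes were below vehicle and 5 above, with a median of -0.24, while 58.6% of all genes were below. Of the 16, 1 was called lower, against 3.93% of all genes. With the combination against dabigatran 15 were below and 1 above, with a median of -0.28, while 52.5% of all genes were below. Here 3 of the 16 were called lower, against 2.04% of all genes. Igfbp2, an insulin-like growth factor binding protein that marks mature type 1 cells, was the gene called in both pairs. It had 255 FPKM with vehicle, 125 FPKM with amiodarone, 312 FPKM with dabigatran and 158 FPKM with the combination. Both libraries with amiodarone lay well below their controls, with ratios of 0.489 (0.466 to 0.512) and 0.509 (0.488 to 0.530).

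Spock2, a matrix proteoglycan, had 173, 119, 200 and 115 FPKM with vehicle, amiodarone, dabigatran and the combination. Its ratios were 0.691 in the first pair and 0.576 in the second. Flrt3, a membrane adhesion protein, had 19.0, 14.4, 22.0 and 13.0 FPKM, and ratios of 0.757 and 0.588. Spock2 and Flrt3 were called with dabigatran present and not without it, a difference that was not tested. The semaphorin Sema3e (0.743 and 0.687), the heparan sulphate sulphotransferase Hs2st1 (0.682 and 0.797), Ndnf (0.726 and 0.732), the keratin Krt7 (0.821 and 0.909) and the receptor Gprc5a (0.969 and 0.929) were below 1 in both pairs. The basement membrane collagens Col4a3 (0.953 and 0.755) and Col4a4 (0.867 and 0.703), whose chains belong to the alveolar basement membrane, were likewise below 1. Timp3, an inhibitor of metalloproteinases also made by other lung cells, was the member of this list above 1 in both, at 1.38 and 1.14. The caveolin gene Cav1 (1.06 and 0.915), the laminin chain Lama3 (1.04 and 0.935), Gramd2 (1.08 and 0.965) and Lmo7 (1.04 and 0.999) changed sides. The interval includes 1 for Lama3 in the first pair and for Gramd2 and Lmo7 in the second. For these genes the change of side is therefore not beyond counting error.

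Regulators of alveolar identity were lower in both pairs in 6 of 7 cases, none by 1.5-fold, while 37.9% of all genes were lower in both pairs. Nkx2-1, the lineage factor of lung epithelium, had 132 FPKM with vehicle, 105 FPKM with amiodarone, 123 FPKM with dabigatran and 108 FPKM with the combination. The ratios of the 2 pairs were 0.797 (0.765 to 0.830) and 0.876 (0.841 to 0.912). Foxa2 (0.700 and 0.797), Gata6 (0.748 and 0.811), Tead1 (0.775 and 0.692), Wwtr1, which encodes TAZ (0.838 and 0.838), and Yap1 (0.969 and 0.853) were lower as well, although the first interval of Yap1 (0.915 to 1.03) includes 1. Klf5 was the exception, at 1.08 and 0.959, both with intervals that include 1. The median over the 7 genes was -0.32 with amiodarone against vehicle and -0.25 with the combination against dabigatran. These are levels in whole lung, and which cells they came from was not tested.

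**Figure D3:**
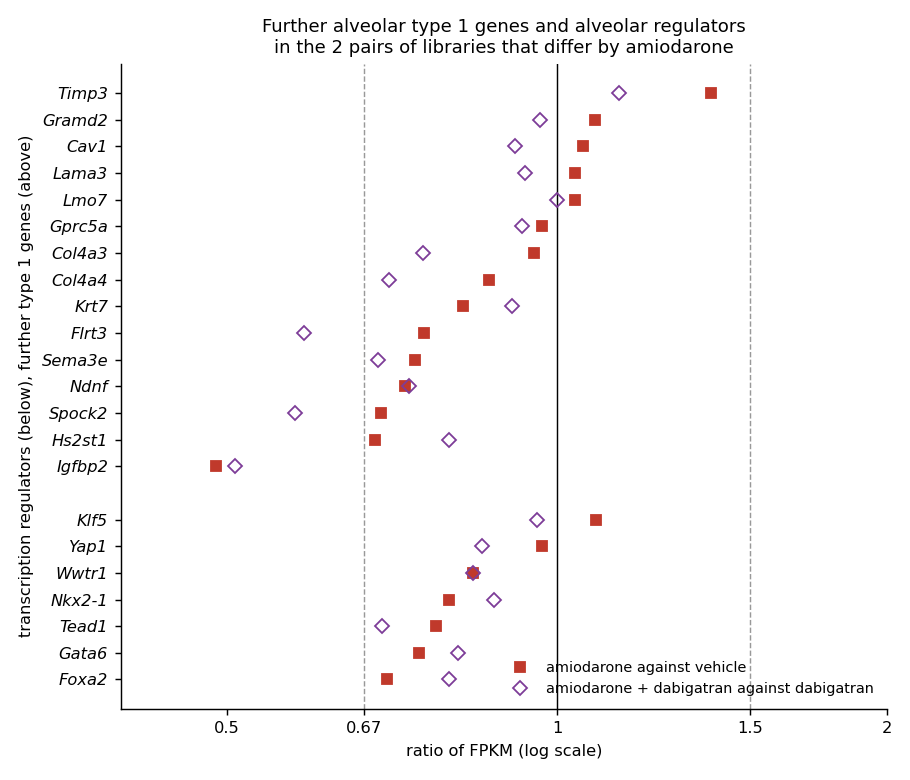
Ratio of FPKM (log axis) of the further type 1 genes named in the text and the 7 regulators, with filled squares for amiodarone against vehicle and open diamonds for amiodarone + dabigatran against dabigatran. Igfbp2, at 0.489 and 0.509, is the gene for which both symbols lie beyond the dashed line for 1.5-fold lower.

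Promoter sequences show where such factors could be looked for. RefSeq promoters on GRCm38.p6, 250 bases before to 50 after each start site, were found for 9 of the 10 members, 12 promoters in all. The motif CAAGTG, a core of NKX2-type sites, was found on either strand in 2 of them and in 13.6% of all 32851 promoters. GGAATG, the core bound by TEAD factors, was in 0 of the 12 and in 14.7% of all, and TGANTCA, the AP-1 site, in 0 and in 7.81%. No match overlapped that of another motif, and a match or its lack says nothing on binding. Both promoters with a match belong to genes with a pair of start sites, and are shown on the transcribed strand with the CAAGTG motif or its complement CACTTG in capitals. The Hopx sequence lies at chr5:77095218-77095517, minus strand, with the match from 34 to 39 bases after its start site. The Cldn18 sequence lies at chr9:99710014-99710313, minus strand, with the match from -98 to -93. The table counts reads per gene and does not tell the start sites apart.
Hopx: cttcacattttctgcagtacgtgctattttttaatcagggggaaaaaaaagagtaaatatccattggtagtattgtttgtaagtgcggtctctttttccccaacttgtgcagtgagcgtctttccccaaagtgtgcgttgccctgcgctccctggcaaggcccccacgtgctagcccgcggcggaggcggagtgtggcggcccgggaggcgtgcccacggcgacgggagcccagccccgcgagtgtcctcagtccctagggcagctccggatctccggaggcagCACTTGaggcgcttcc
Cldn18: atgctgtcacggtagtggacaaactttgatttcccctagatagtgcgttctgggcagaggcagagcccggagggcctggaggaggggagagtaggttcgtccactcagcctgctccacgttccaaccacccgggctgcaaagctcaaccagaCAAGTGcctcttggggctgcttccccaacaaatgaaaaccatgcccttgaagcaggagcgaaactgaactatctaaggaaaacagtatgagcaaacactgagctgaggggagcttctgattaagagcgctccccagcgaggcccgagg

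The members lie on 8 chromosomes. On GRCm38.p6, Ager is on chromosome 17 from 34597460 to 34600937, Clic5 on chromosome 17 from 44134762 to 44280169 and Vegfa on chromosome 17 from 46016993 to 46032377. Hopx is on chromosome 5 from 77086986 to 77115123 and overlaps the RefSeq genes Hopxos and LOC115490297, and Aqp5, on chromosome 15 from 99591028 to 99594829, overlaps the noncoding gene Gm34765. As strand is not stated for the libraries, reads of these overlapping genes cannot be told apart. Pdpn is on chromosome 4 (143267409 to 143299564), Cldn18 on chromosome 9 (99690796 to 99717267), Rtkn2 on chromosome 10 (67979566 to 68058429), Akap5 on chromosome 12 (76324617 to 76334517) and Emp2 on chromosome 16 (10281749 to 10313968). The transcript length implied by reads and FPKM differed between libraries by at most 0.740% for 9 members, and by 4.42% for Rtkn2, from 3148 bases with amiodarone to 3287 bases with dabigatran. For Rtkn2 the estimated mixture of transcripts therefore entered the FPKM.

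Type 2 cells, the progenitors, can be set beside the type 1 genes. Of 11 type 2 genes, 7 were above vehicle with amiodarone, with a median of 0.08, while 58.6% of all genes were below. Of the 11, 1 was called higher, against 4.34% of all genes, and none lower, against 3.93%. With the combination 9 were above dabigatran, with a median of 0.23, while 52.5% of all genes were below. None was called in that pair, against 3.25% of all genes higher and 2.04% lower. Sftpd, which encodes surfactant protein D, was the called gene, with 481 FPKM with vehicle, 828 FPKM with amiodarone, 477 FPKM with dabigatran and 594 FPKM with the combination. Sftpa1 had ratios of 1.36 and 1.14 in the 2 pairs, and Etv5, a transcription factor of type 2 cells, 0.735 and 0.952. Sftpc, the defining type 2 gene, had 20077, 19587, 19876 and 20385 FPKM and differed little. The type 1 genes were lower in both pairs in 6 of 10 cases, the type 2 genes in 2 of 11 and all genes in 37.9%. They were higher in both pairs in 4 of 10, 7 of 11 and 26.5%, and the lists were not tested against each other.

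Cells that turn from type 2 into type 1 after injury pass through a state with keratins, claudin 4 and cell cycle inhibitors. Of 10 genes of that state, 3 were called higher with amiodarone against vehicle, against 4.34% of all genes, and none lower, against 3.93%. Their median was -0.05, with 4 above 0 and 6 below. With the combination against dabigatran 2 were called higher and 1 lower, against 3.25% and 2.04% of all genes. Cdkn1a, which encodes the inhibitor p21, had 34.5, 94.0, 35.1 and 62.2 FPKM with vehicle, amiodarone, dabigatran and the combination. Lgals3, galectin 3, had 125, 271, 122 and 245 FPKM, and Areg, an epidermal growth factor receptor ligand, 5.27, 8.93, 4.96 and 6.38 FPKM. All 3 are also made by macrophages or other cells. Sfn, the keratins, Cldn4, Hbegf and Itgb6 were not called with amiodarone against vehicle. In the 2 pairs Sfn had ratios of 1.02 and 1.17, Krt8 of 0.946 and 1.15 and Krt18 of 0.829 and 1.10. Krt19 had 0.813 and 1.13 and Cldn4 had 0.979 and 1.05. Hbegf had 0.736 and 0.954 and Itgb6 had 0.668 and 0.605, the last called lower in the second pair.

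Among ligands of RAGE, the product of Ager, S100a8 and S100a9 differed far more than the receptor. The highest value of Hmgb1 was 1.11 times its lowest, against 1.10 times for Ager. Hmgb1 was at 0.904 times vehicle with amiodarone (0.868 to 0.941). S100a8 had 22.4 FPKM with vehicle, 141 FPKM with amiodarone, 16.7 FPKM with dabigatran and 99.4 FPKM with the combination, and S100a9 had 45.0, 276, 31.2 and 207 FPKM. Both libraries with amiodarone were above the others, by ratios of 6.31 and 5.94 for S100a8 and of 6.14 and 6.65 for S100a9. Both proteins are products of neutrophils. Hmgb1 (0.904 and 1.03), the sheddase gene Adam10 (1.10 and 0.848) and S100b (0.552 and 0.652), at no more than 1.74 FPKM, were the others of the list.

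The receptors of VEGF-A did not follow their ligand as a group. Kdr, the main signalling receptor on capillaries, had 78.0, 58.2, 90.8 and 57.4 FPKM with vehicle, amiodarone, dabigatran and the combination, lower in both libraries with amiodarone as Vegfa was, with ratios of 0.746 (0.721 to 0.772) and 0.633 (0.612 to 0.654). Flt1, the decoy receptor, had 30.1, 44.0, 34.3 and 33.7 FPKM, and ratios of 1.46 and 0.984. The coreceptor Nrp1 had ratios of 1.08 and 0.763 and Nrp2 of 0.702 and 0.788. The lymphatic receptor Flt4 had 1.27 and 0.900, and its ligands Vegfc 1.54 and 1.02 and Vegfd 0.886 and 0.982. Vegfb (0.974 and 1.01) and Pgf (1.09 and 1.02) completed the 9 genes. None was called with amiodarone against vehicle, against 4.34% of all genes higher and 3.93% lower. With the combination against dabigatran 1, Kdr, was called lower, against 2.04% of all genes, and none higher, against 3.25%.

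Markers of other cells moved with amiodarone, and their part in the differences above was not tested. Of all genes, 4.34% were called higher and 3.93% lower with amiodarone against vehicle. With the combination against dabigatran the shares were 3.25% and 2.04%. The summed level of 7 macrophage genes was 180 FPKM with vehicle, 899 FPKM with amiodarone, 205 FPKM with dabigatran and 1133 FPKM with the combination, with 6 of 7 called higher in either pair and Chil3 the most abundant. Of 4 neutrophil genes all were called higher in both pairs, and their sum was 23.7, 177, 20.0 and 123 FPKM. The sums of 3 club cell genes were 130281, 77816, 104459 and 101832 FPKM, with all 3 called lower with amiodarone against vehicle. Scgb1a1 made up nearly all of these sums, and in the second pair it had a ratio of 0.987, while Scgb3a2 had 0.705 and Cyp2f2 had 0.764. Cardiac muscle, which also makes Hopx, was represented by 5 genes that summed to 1317, 699, 930 and 626 FPKM. Of these, 3 were called lower with amiodarone against vehicle and 2 with the combination against dabigatran. Without amiodarone, 2 were also called lower with dabigatran against vehicle, against 0.508% of all genes. With the combination against amiodarone 1 was called lower, against 1.22%. Of the cells that share Pdpn, the 4 mesothelial genes summed to 94.6, 46.3, 93.4 and 106 FPKM, lowest in the amiodarone library, where Pdpn was high, and highest with the combination, where Pdpn was high too. The 4 lymphatic endothelial genes summed to 110, 216, 111 and 143 FPKM, nearly all of it Lyve1, which macrophages also make, and Prox1, their defining factor, was at 1.0 FPKM or below. The 6 fibroblast genes summed to 1905, 1689, 1783 and 1842 FPKM, of which Inmt alone had 1514, 1377, 1337 and 1496 FPKM. All 6 were below vehicle with amiodarone and 4 were below dabigatran with the combination, with medians of -0.25 and -0.17, and Col1a2 (0.619) was the gene called lower in the second pair. The 10 capillary endothelial genes summed to 1908, 2484, 2163 and 2041 FPKM, of which Ramp2 alone had 545, 920, 555 and 678 FPKM. With amiodarone 7 of the 10 were above vehicle and 3 below, with 2 called higher and 0 lower. With the combination 2 were above dabigatran and 8 below, with 0 called higher and 2 lower. No gene of these lists was at 0 in any library.

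**Figure D4:**
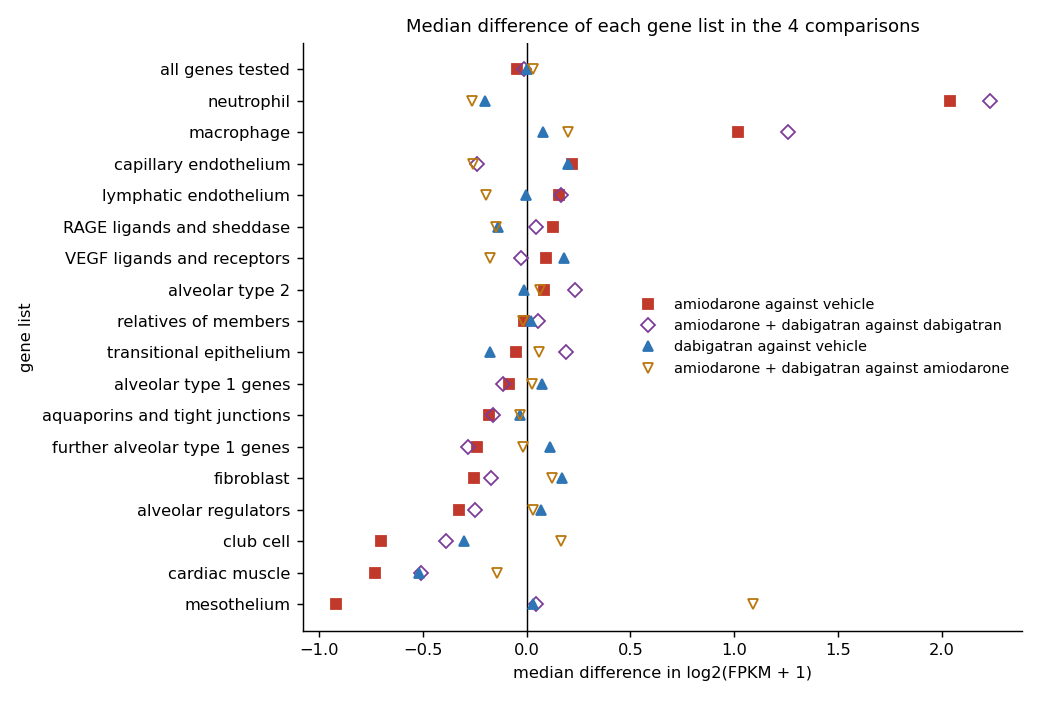
Median difference in log2(FPKM + 1) of each gene list, and of all genes tested in the top row, in the 4 comparisons, 1 symbol per comparison. The alveolar type 1 genes lie near 0 in all 4 comparisons, from -0.11 to 0.07, while the neutrophil list reaches 2.04 and 2.23 in the 2 pairs that differ by amiodarone.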

How the data were processed

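Poly(A)-selected lung RNA was sequenced as DNBseq libraries, 1 for each of the 4 treatments, and libraries were assigned from the treatment label. The authors mapped reads to GRCm38.p6 with HISAT and to reference genes with Bowtie2, and deposited for each gene an estimated count of reads from RSEM and a normalized value. The deposited normalized values were read as FPKM from their behaviour, since the sources used here do not name the unit. Another 8 columns of means over 2 libraries were not used.

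The 10 members and all gene lists were chosen with earlier results of these data known. Genes that reached 1 FPKM in one or the other library were compared on log2(FPKM + 1), which understates changes of low genes, and called at 1.5-fold. Ratios are of FPKM, with exact Clopper-Pearson intervals at 95% from rounded reads. No p-value is given. Named were all members, all further type 1 genes but 1, which is counted in its list and not reported here, regulators, RAGE ligands and VEGF genes at 1 FPKM or above, and up to 3 genes with the largest amiodarone difference from each other list. Sftpc, Sfn, Krt8, Krt18, Krt19, Cldn4, Itgb6, Hbegf, Inmt and Aqp3 fall outside this rule and were picked with their values in view. The procedure was tested on simulated data. RefSeq gave coordinates (99.4% of gene identifiers matched) and promoters. Python 3.11.15, pandas 2.3.3 and SciPy 1.17.1 were used. Alternatives were other scalings, pseudocounts, filters, folds and list memberships.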

Additional observations from a re-analysis of the deposited data

Results flagged for a closer look

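For 2 members dabigatran went with opposite directions in mice without and with amiodarone, beyond counting error in each pair, and the difference between the pairs was not tested across animals. Akap5 had a ratio of 0.964 (0.935 to 0.995) for dabigatran to vehicle and of 1.36 (1.31 to 1.40) for amiodarone + dabigatran to amiodarone. Aqp5 had ratios of 1.04 (1.003 to 1.072) and 0.953 (0.923 to 0.983). The interval for dabigatran to vehicle came close to 1 for both genes. The share of all genes with such opposite directions was not counted. Both ratios of a gene rest on 1 library per group.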

How the results depend on the processing

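Scaling by the median ratio over 12728 genes moved the 40 ratios of members by -2.63% to 3.43%, and scaling reads to the library total by -2.12% to 4.02%. The first made 4 of them cross 1 and the second 1. They were those of Hopx with amiodarone against vehicle and of Hopx, Pdpn and Vegfa, or of Rtkn2, with the combination against amiodarone, with values between 0.985 and 1.03 after the change. Median ratio scaling took the median of the combination against amiodarone to -0.013. Without Vegfa and Cldn18, the median was 0.011 with amiodarone against vehicle and -0.014 with the combination against dabigatran, so that the first changed sign and the second came close to 0. The further type 1 genes in place of the members, an alternative chosen after seeing the data, gave -0.24, -0.28 and, for the combination against amiodarone, -0.020, with 3 genes called lower against dabigatran. With a ratio of 5 to 4 as the threshold, 1 member was higher and 2 were lower with amiodarone against vehicle, 1 was higher with the combination against amiodarone and 1 was lower with the combination against dabigatran. At 2-fold 0 were lower with amiodarone against vehicle. The shares of all genes at these other thresholds were not counted, so these counts cannot be set against a background. A pseudocount of 0.1, a minimum of 5 FPKM and no filter moved no count, and the medians only in the third decimal. No paired analysis was possible because each group has 1 library, and no library could be left out for the same reason.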

Other observations

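Aquaporins and tight junction genes apart from Aqp5 and Cldn18 were 8, of which Aqp3 was too low to be tested with amiodarone against vehicle and with the combination against amiodarone. None of those tested was called in any of the 4 comparisons, where 0.449% to 4.34% of all genes were called per direction. Aqp3, at 0.50 FPKM with vehicle and 1.06 FPKM with dabigatran, had a ratio of 2.12 (1.12 to 4.21) that on the log2(FPKM + 1) scale was a difference of 0.46. The largest differences with amiodarone against vehicle were those of the junction protein Ocln, at 18.4 FPKM with vehicle, 14.5 FPKM with amiodarone, 17.2 FPKM with dabigatran and 15.5 FPKM with the combination, of Aqp4, at 3.61, 2.82, 2.99 and 2.46 FPKM, and of Cldn7, at 41.1, 34.1, 37.8 and 33.0 FPKM. All 3 were lower in both libraries with amiodarone than in their controls.

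Relatives of the members were 6 genes, none of them called in any of the 4 comparisons, against 0.449% to 4.34% of all genes per direction. Clic4, a relative of Clic5 that endothelium makes, had 215, 286, 234 and 259 FPKM and Clic1 130, 158, 135 and 157 FPKM, both higher with amiodarone in the 2 pairs. Rtkn, the relative of Rtkn2, had 23.6, 16.2, 19.3 and 18.9 FPKM.

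Among 6944 other genes whose mean reached 10 FPKM, the 5 whose values over the 4 libraries lay closest to the mean pattern of the members were Mgat1, Ap1g1, Pcnx3, Csad and Agpat4, by Euclidean distance on the log2(FPKM + 1) scale (0.0099 to 0.016). With 4 libraries and differences this small, such likeness is a description only.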
